A study of Mus musculus with 6 samples.

Results

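The tumour necrosis factor (TNF) superfamily is a set of small cytokines and the receptors that bind them. Genes were taken by name from the deposited gene lists: every gene whose symbol begins with Tnfsf or Tnfrsf, together with Tnf, Lta, Ltb, Ltbr, Cd27, Cd40, Cd40lg, Cd70 and Eda2r. This gave 42 of the 29781 genes listed in any library, and all 42 were listed in all 6 libraries. They were followed across the cells of pancreatic tumours grown in mice, first by the cell class that held each ligand and receptor and then by treatment.

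The ligands are mostly made as membrane proteins on 1 cell and bind trimers of receptor on another, and several can be cut from the membrane and act at a distance. Receptors with a death domain, such as those for TNF and TRAIL, can lead to inflammation or to cell death, while costimulatory receptors such as OX40, GITR, 4-1BB, CD27 and CD40 bind TRAF adaptors and activate NF-kB. In tumours the family is known for macrophage and neutrophil TNF, for the costimulation of T cells, and for the licensing of dendritic cells through CD40.

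All 6 libraries came from wild-type C57BL/6J mice that carried orthotopic tumours of KPC cells, a line from mouse pancreatic cancer. Tumours were collected 11 days after inoculation. The IgG group was 3 mice given control IgG, and the anti-VSIG4 group was 3 mice given an antibody (#44-anti-mVSIG4) against VSIG4, an immune receptor of macrophages. Each library is 1 mouse, so the tests below measure the spread between mice, and the dose and the number of injections were not given in the sources used here.

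The libraries held 26606234 to 47221033 unique molecular identifiers (UMIs, counts of captured transcripts) in 6518 to 9566 barcodes, and 47603 of 47794 barcodes were kept. Between 3972 and 5091 barcode names of each library were also used in another, so cells were told apart by library and barcode together. Clusters that resemble nuclei held 15.9% of the cells of IgG 2, 42.8% of IgG 3 and 5.15% of anti-VSIG4 3, against 0.401% to 0.643% in the other libraries. These clusters were left out of the cell classes, and the 3 libraries rich in them are named below wherever they stand apart. The doublet caller marked 0 of 47603 cells and has therefore not worked.

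Cells were clustered and named without any member of the family among the clustering genes or the markers, so that the classes do not rest on the genes described. Levels are UMIs of the class summed per library and given as CPM, the count scaled to the size of that sum. They are compared within a gene across classes, not between genes. A class enters where a library had at least 20 of its cells, which leaves 5 libraries for regulatory T cells (IgG 2 had 17) and 3 for gamma-delta T cells. The class of regulatory T cells (407 cells) carried Foxp3, the factor that defines them, at 481 CPM, against 19.6 and 3.55 CPM in the 2 clusters of conventional CD4 T cells. Of the 42 members, 38 reached a mean of 5 CPM in at least 1 class. The other 4 did not: Eda2r (3.02 CPM in fibroblasts), Tnfsf13 (0.464 CPM in monocytes and macrophages), Tnfsf15 (4.84 CPM in fibroblasts) and Tnfsf18 (0.453 CPM in fibroblasts, with 19 UMIs in all kept cells).

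Among the 38, the class with the highest mean was the neutrophil for 6 genes and the regulatory T cell for another 6. It was the migratory dendritic cell for 5, the endothelial cell for 4, the monocyte/macrophage for 4, the fibroblast for 3, the conventional CD4 T cell for 3 and the tumour/epithelial cell for 2. The remaining 5 had their highest class among B cells (Tnfrsf13c), plasma cells (Tnfrsf17), plasmacytoid dendritic cells (Tnfrsf13b), gamma-delta T cells (Tnfrsf25) and proliferating T cells (Lta).

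**Figure D1:**
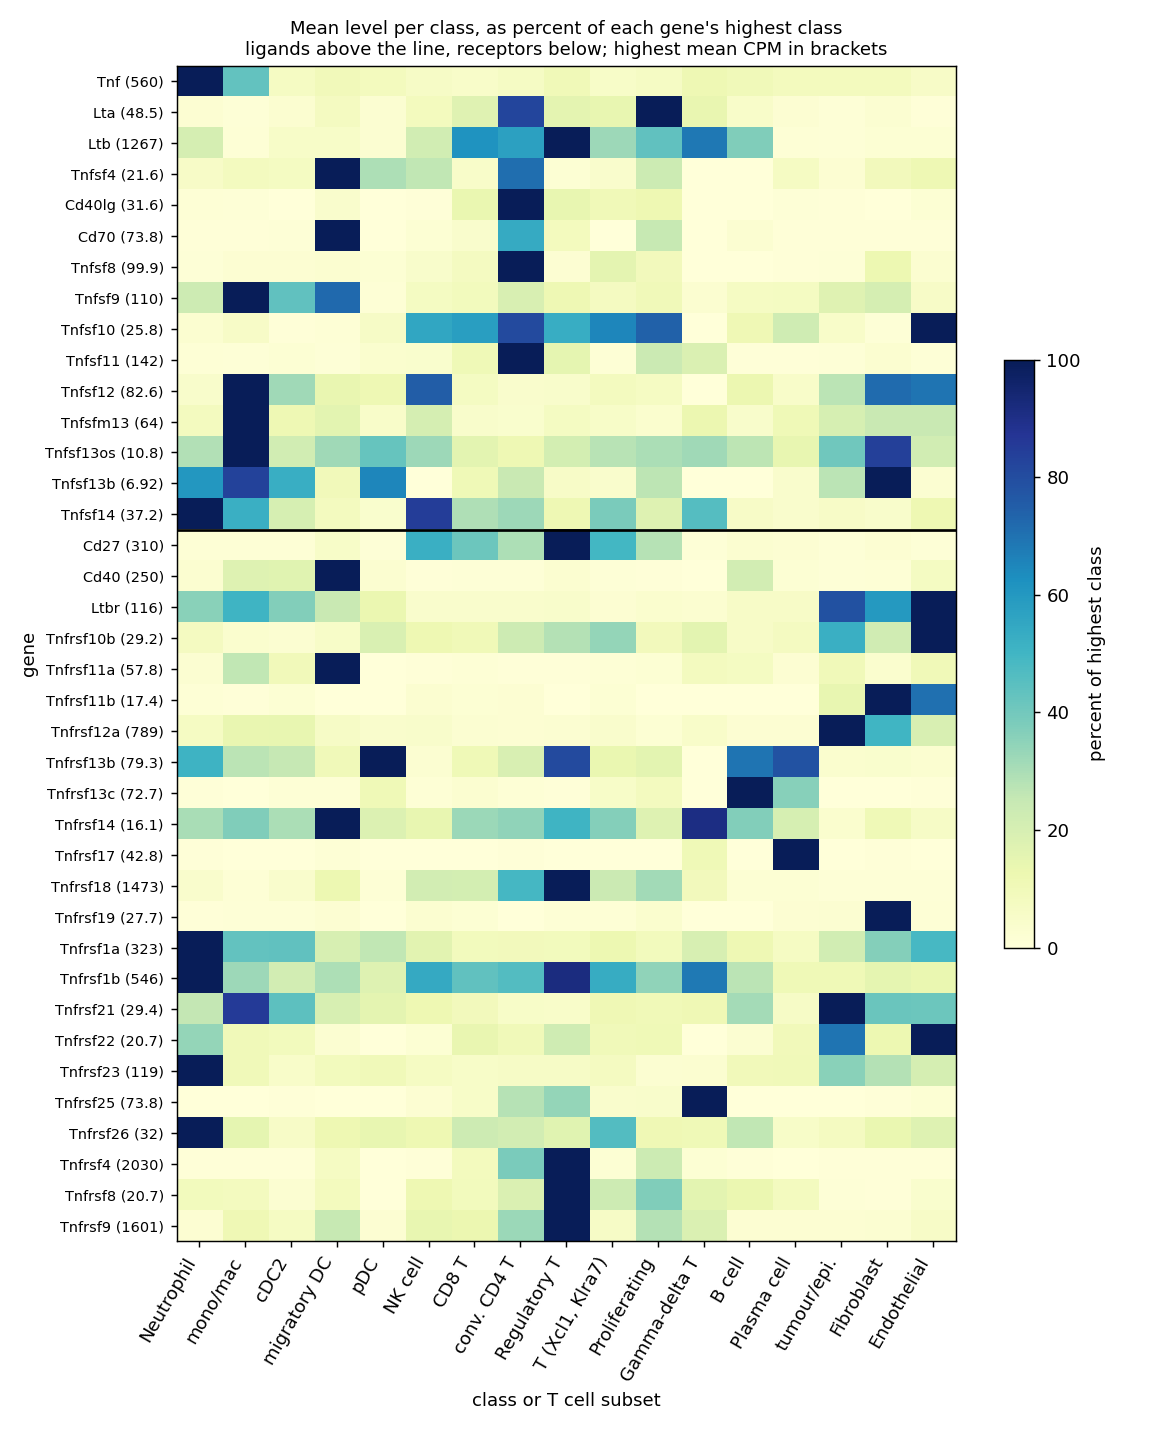
Mean CPM over libraries of the 38 members (rows, ligands above the line and receptors below) in 17 classes and T cell subsets (columns), coloured as percent of each gene's highest class, with that highest mean in brackets. Tnf and its receptors Tnfrsf1a and Tnfrsf1b are darkest in neutrophils, while Tnfrsf4, Tnfrsf9 and Tnfrsf18 are darkest in regulatory T cells.

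The sequences before 3 receptor genes are shown because these genes were together at their highest in regulatory T cells: Tnfrsf4, which encodes OX40, Tnfrsf18, which encodes GITR, and Tnfrsf9, which encodes 4-1BB. All lie on mouse chromosome 4, and the starts of Tnfrsf4 and Tnfrsf18 are 12.6 kb apart. Each line gives 250 bases before to 50 bases after an annotated start, read on the plus strand from RefSeq's table on GRCm38.p6, which gave a promoter for 31 of the 42 members and 2 starts for Tnfrsf9. Capitals mark matches to the letters GGGNNNTTCC, of the NF-kB type, or TGACTCA, of the AP-1 type, searched on both strands.

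Tnfrsf9, upstream start, chr4:150919905-150920204: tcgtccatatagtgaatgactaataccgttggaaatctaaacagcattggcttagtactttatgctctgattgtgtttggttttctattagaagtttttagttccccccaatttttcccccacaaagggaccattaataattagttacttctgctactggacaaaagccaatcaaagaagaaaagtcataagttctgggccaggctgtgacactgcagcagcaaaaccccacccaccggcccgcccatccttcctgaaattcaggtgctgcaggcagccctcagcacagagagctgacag
Tnfrsf9, downstream start, chr4:150927749-150928048: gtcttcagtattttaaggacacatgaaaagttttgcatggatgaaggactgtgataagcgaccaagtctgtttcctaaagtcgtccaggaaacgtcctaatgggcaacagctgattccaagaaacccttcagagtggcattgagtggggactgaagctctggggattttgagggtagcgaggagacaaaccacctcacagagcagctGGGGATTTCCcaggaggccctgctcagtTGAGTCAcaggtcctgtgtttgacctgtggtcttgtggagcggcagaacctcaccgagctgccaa
Tnfrsf4, chr4:156013445-156013744: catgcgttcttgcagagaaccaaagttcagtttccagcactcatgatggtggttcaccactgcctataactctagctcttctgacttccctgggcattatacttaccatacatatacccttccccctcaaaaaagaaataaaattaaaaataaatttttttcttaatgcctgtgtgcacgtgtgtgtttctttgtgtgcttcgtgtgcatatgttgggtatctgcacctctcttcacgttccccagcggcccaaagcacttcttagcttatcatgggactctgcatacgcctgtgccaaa
Tnfrsf18, chr4:156026072-156026371: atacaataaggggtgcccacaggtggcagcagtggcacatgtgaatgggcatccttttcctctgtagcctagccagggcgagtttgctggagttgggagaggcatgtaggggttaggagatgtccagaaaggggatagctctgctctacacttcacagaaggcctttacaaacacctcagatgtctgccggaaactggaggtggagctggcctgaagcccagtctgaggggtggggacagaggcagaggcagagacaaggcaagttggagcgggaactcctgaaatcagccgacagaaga

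The window at the downstream start of Tnfrsf9 held GGGGATTTCC at bases 208 to 217 and TGAGTCA at bases 236 to 242, and the other 3 windows held neither. Over all 32851 promoter windows of this length, 5.56% held the NF-kB type letters and 5.2% the AP-1 type letters. Among the 35 windows of family members, 4 held the first (of Eda2r, Ltb, Tnfrsf25 and Tnfrsf9) and 6 the second (of Tnfrsf8, Tnfrsf9, Tnfsf13, Tnfsf13b and Tnfsf14). The windows of Tnfsf13b that start at bases 10006217 and 10006383 of chromosome 8 overlap and share the same AP-1 type site. That site is therefore counted more than once. A match of letters is a description and shows no binding.

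Of the ligands, Tnf was highest in neutrophils. In IgG 1, 2 and 3 neutrophils had 375, 699.6 and 514 CPM of Tnf, and in anti-VSIG4 1, 2 and 3 they had 534, 399 and 841 CPM. Monocytes and macrophages of the same libraries had 189.6, 382 and 190.3 CPM, then 191, 127 and 377 CPM. The neutrophil value was the higher of the pair in 6 of 6 libraries, and in both classes IgG 2 and anti-VSIG4 3 were the highest libraries. Across the class the means were 560.4 ± 179.8 CPM in neutrophils and 243 ± 109 CPM in monocytes and macrophages (SD, n = 6). Monocytes and macrophages, with a median of 4480 UMIs per cell against 1580, held 48.1% ± 7.2 of the Tnf UMIs of the named classes, against 40.2% ± 5.9 for neutrophils (SD, n = 6).

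Tnf was not even within either class. Among the 3 large neutrophil clusters, cluster 1, led by Hcar2, Igfbp6 and Il23a, had 711 ± 177 CPM, and cluster 3, led by S100a8, Il23a and Mmp9, had 810.1 ± 415.5 CPM. Cluster 2, led by S100a8, Retnlg and Cxcr2, had 271 ± 76.0 CPM (SD, n = 6 for each), and was the lowest of the 3 in each of the 6 libraries. The 3 libraries rich in nucleus-like cells had 1064 to 2376 cells in cluster 1 and 47 to 154 in cluster 3. The other libraries had 131 to 172 and 738 to 1763, so the neutrophil class is made of different clusters in the 2 kinds of library. This clustering did not correct for differences between libraries. Whether clusters 1 and 3 are different cell states or reflect the libraries therefore cannot be told apart here.

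Among monocytes and macrophages, cluster 10, led by Saa3 and Arg1, had 565 ± 270.1 CPM of Tnf. The clusters led by C1qa and H2-Ab1 (cluster 0) and by Apoe, C1qa and Ccl8 (cluster 5) had 175 ± 92.3 and 129 ± 33.5 CPM (SD, n = 6). The same cluster 10 was the place of Tnfsf9, the 4-1BB ligand, at 336 ± 159 CPM, against 50.5 ± 14.1 and 31.7 ± 10.2 CPM in clusters 0 and 5. Its own receptor, Tnfrsf9, was at 376 ± 255 CPM in cluster 10, with 732 and 639 CPM in anti-VSIG4 1 and 2 and 143 to 366 CPM in the other libraries.

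**Figure D2:**
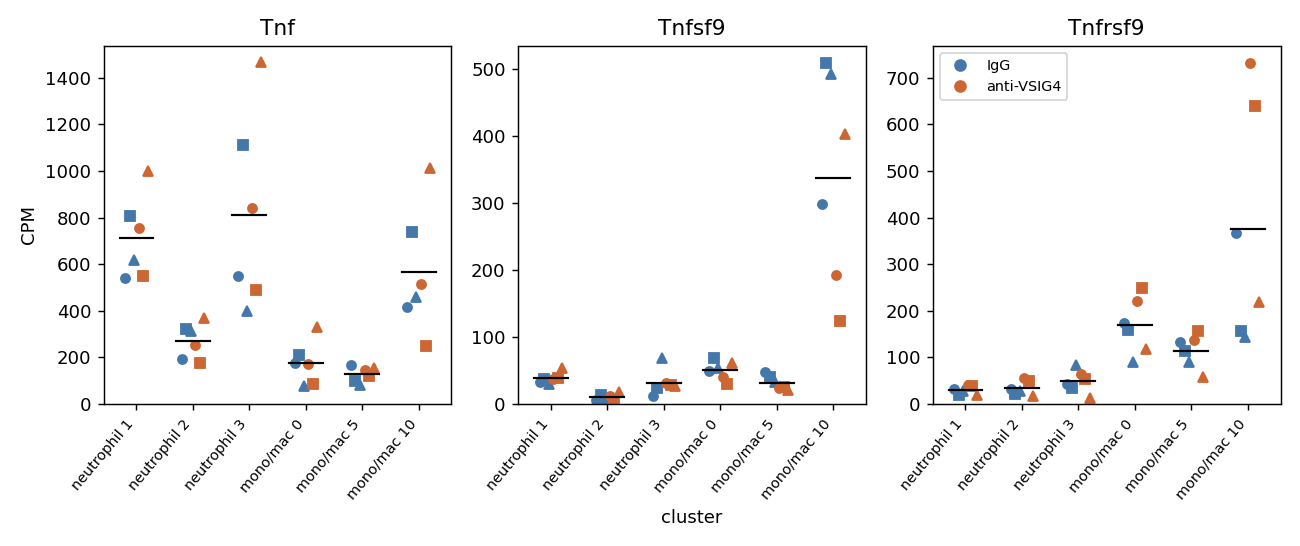
CPM (linear axis) of Tnf, Tnfsf9 and Tnfrsf9 in neutrophil clusters and in monocyte/macrophage clusters, 1 point per library (circle, square and triangle for replicates 1, 2 and 3) with a bar at the mean of 6 libraries. Cluster 10 stands above clusters 0 and 5 for Tnf (565 CPM) and Tnfsf9 (336 CPM).

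In classes other than these, Tnf stood at 5.0% to 11.4% of its neutrophil level. The summed neutrophil markers (S100a8, S100a9 and 5 others) stood in the same classes at 2.55% to 7.15% of their own neutrophil level, and the part of such RNA in the Tnf of these classes was not tested. In monocytes and macrophages the markers were at 4.24% and Tnf at 43.3%. After each cell was thinned to 1000 UMIs, 21.6% ± 4.8 of neutrophils and 15.3% ± 4.6 of monocytes and macrophages had a Tnf UMI (SD, n = 6). The share in B cells was 2.78% ± 2.92. Before thinning, the median depths of these 3 classes were 1580, 4480 and 2378 UMIs. Without thinning the order of the first 2 classes was reversed in every library. The means were then 26.0% (IgG) and 29.6% (anti-VSIG4) of neutrophils, against 36.4% and 43.0% of monocytes and macrophages.

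Tnf was tested between the classes within the same mice with edgeR's quasi-likelihood test and library as a block. Relative to the UMIs of the class, neutrophils had more Tnf than monocytes and macrophages by 1.34 ± 0.12 on the log2 scale (SE; edgeR adjusted p = 2.46e-08). In that comparison 23 of 30 members tested passed, 11 higher and 12 lower in neutrophils, where 72.8% of all 12146 genes passed. The members' median log2 difference was -0.12, against 0.00 over all genes, and the count of members is near the background.

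Ltb, lymphotoxin beta, was the 1 ligand with its highest level in regulatory T cells. In the 5 libraries it was at 1283, 1161, 1132, 1288 and 1469 CPM, in the order IgG 1 and 3 and anti-VSIG4 1, 2 and 3. Conventional CD4 T cells of these libraries had 696, 810.4, 565, 824 and 813 CPM, below the regulatory T cells in 5 of 5. Ltb was spread over lymphocytes, with 867 ± 154 CPM in gamma-delta T cells (SD, n = 3) and 780.0 CPM in CD8 T cells. T cells held 58.0% ± 11.4 of its UMIs in named classes and neutrophils 24.98% ± 10.7 (SD, n = 6). In neutrophils it was at 262 ± 59.3 CPM, against 19.2 ± 7.41 CPM in monocytes and macrophages, a log2 difference of 3.89 ± 0.22 (SE; edgeR adjusted p = 9.81e-08).

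Its receptor Ltbr, which acts in stromal cells and in lymphoid tissue, was highest in endothelial cells (116 ± 15.4 CPM) and next in tumour/epithelial cells (91.2 ± 15.9 CPM; SD, n = 6). Endothelial cells were above tumour cells in 5 of 6 libraries. Tnfsf14, called LIGHT, which also binds Ltbr, was at 37.2 ± 8.04 CPM in neutrophils and 31.6 ± 19.8 CPM in NK cells (SD, n = 6), and neutrophils were the higher in 3 of 6 libraries. NK cells split for this gene: IgG 1 and anti-VSIG4 2 had 7.33 and 5.58 CPM and the other 4 libraries had 39.6 to 48.1 CPM. The other receptor of LIGHT, Tnfrsf14, was low, with 16.1 ± 13.1 CPM in migratory dendritic cells.

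Lta, lymphotoxin alpha, had its highest mean in proliferating T cells only through 1 cell. The libraries had 1.16, 3.95 and 11.9 CPM in the IgG group and 10.8, 220.2 and 42.9 CPM in the anti-VSIG4 group. In anti-VSIG4 2, 226 of the 257 Lta UMIs of the class were in 1 cell of 54825 UMIs, and without it the library was at 27.9 CPM. In conventional CD4 T cells Lta was at 17.7 to 73.6 CPM in all 6 libraries, and those cells were above the proliferating class in 5 of 6.

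Tnfsf11, Tnfsf8 and Cd40lg were highest in conventional CD4 T cells. Tnfsf11, which encodes RANKL, a ligand of dendritic cells and of bone-resorbing cells, was at 142 ± 54.0 CPM there, and the next class, proliferating T cells, had 33.3 ± 18.8 CPM. Tnfsf8, which encodes the CD30 ligand, was at 99.9 ± 41.8 CPM against 15.2 ± 9.64 CPM in the next class. Cd40lg, the ligand by which helper T cells act on CD40, was at 31.6 ± 13.7 CPM (SD, n = 6), and its next class was the regulatory T cell with 4.52 ± 5.76 CPM (SD, n = 5). For each of these 3 genes conventional CD4 T cells were above the next class in every library compared, 6, 6 and 5.

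Of the ligands of dendritic cells and macrophages, Cd70 and Tnfsf4 were highest in migratory dendritic cells. Cd70, the ligand of CD27, was at 50.2, 129 and 71.2 CPM in the IgG libraries and 84.1, 60.7 and 47.9 CPM in the anti-VSIG4 libraries. In cDC2, conventional dendritic cells of the second type, it was at 0 to 2.21 CPM, so that these dendritic cell classes did not overlap. Conventional CD4 T cells came next after migratory dendritic cells, with 39.7 ± 29.9 CPM of Cd70 (SD, n = 6). Migratory dendritic cells were above them in 5 of 6 libraries. Tnfsf4, the OX40 ligand, was at 21.6 ± 9.42 CPM in migratory dendritic cells and 15.3 ± 6.53 CPM in conventional CD4 T cells (SD, n = 6), with the first above the second in 4 of 6 libraries. Tnfsf9 was at 66.5, 228 and 177 CPM in monocytes and macrophages of the IgG group and 46.8, 46.0 and 94.3 CPM in those of the anti-VSIG4 group. The next class was the migratory dendritic cell with 79.0 ± 40.8 CPM, and macrophages were above it in 4 of 6 libraries.

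Tnfsf12, which encodes TWEAK, was highest in monocytes and macrophages (82.6 ± 28.2 CPM) and next in NK cells (62.2 ± 12.5 CPM; SD, n = 6). The libraries with most of it were IgG 2 and 3 and anti-VSIG4 3, with 119, 115 and 81.9 CPM, and the others had 55.0 to 63.2 CPM. Tnfsfm13, a read-through transcript of Tnfsf12 and Tnfsf13, was at 64.0 ± 11.1 CPM in macrophages, and the antisense gene Tnfsf13os at 10.8 ± 1.84 CPM. These genes overlap, and whether reads were counted by strand is not given in the sources used here, so the division of reads among Tnfsf12, Tnfsf13, Tnfsfm13 and Tnfsf13os is uncertain. Tnfsf10, which encodes TRAIL, was at 25.8 ± 10.8 CPM in endothelial cells and 20.8 ± 7.51 CPM in conventional CD4 T cells (SD, n = 6), and endothelial cells were the higher in 3 of 6 libraries. Tnfsf13b, which encodes BAFF, the survival factor of B cells, was low, with 6.92 ± 2.01 CPM in fibroblasts and 5.74 ± 1.04 CPM in macrophages.

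The receptors Tnfrsf4, Tnfrsf9, Tnfrsf18, Cd27 and Tnfrsf8 were highest in regulatory T cells, which were compared with conventional CD4 T cells of the same 5 mice. Tnfrsf25, also a receptor of T cells, was highest in gamma-delta T cells. Of 14 members tested, 7 passed as higher and 4 as lower in regulatory T cells, where 13.4% of all 5379 genes passed. Regulatory T cells had 2205, 1709, 2320.0, 2073 and 1840.2 CPM of Tnfrsf4 (IgG 1 and 3, then anti-VSIG4 1, 2 and 3). Conventional CD4 T cells of those libraries had 884, 854, 902, 753 and 641 CPM. The 2 sets do not overlap, and the log2 difference was 1.24 ± 0.10 (SE; edgeR adjusted p = 4.92e-12).

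For Tnfrsf9 the regulatory T cells had 1806, 1008, 1941, 1522 and 1729.6 CPM in the same order. The conventional CD4 T cells had 846, 468, 621, 420.3 and 424 CPM. IgG 3 was the lowest library among the regulatory T cells and was still above every library of the other class, with a log2 difference of 1.45 ± 0.13 (SE; edgeR adjusted p = 6.53e-08). Tnfrsf18 was more even between mice: 1576, 1490.1, 1382, 1464 and 1453 CPM in regulatory T cells. Conventional CD4 T cells had 669 to 812 CPM over 6 libraries, and the log2 difference was 0.92 ± 0.10 (SE; edgeR adjusted p = 4.60e-09).

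Other receptors were higher in regulatory T cells as well. Cd27, the CD70 receptor, was at 310.4 ± 61.0 CPM (SD, n = 5) against 92.1 ± 25.6 CPM (SD, n = 6), a log2 difference of 1.74 ± 0.17 (SE; edgeR adjusted p = 2.26e-10). Tnfrsf13b, which encodes TACI, a receptor of BAFF best known in B cells, was at 63.9 ± 11.7 against 15.4 ± 3.75 CPM and Tnfrsf1b, which encodes TNFR2, at 501 ± 50.3 against 253 ± 20.6 CPM. Ltb, the ligand above, was the seventh gene of this direction with a log2 difference of 0.69 ± 0.10 (SE; edgeR adjusted p = 3.73e-06). All 7 were above the conventional CD4 T cells in 5 of 5 libraries.

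The 4 members lower in regulatory T cells were all ligands. Tnfsf8 was at 0, 0, 7.93, 3.65 and 0 CPM in regulatory T cells and 46.0 to 150.1 CPM in conventional CD4 T cells, which do not overlap. The log2 differences were -5.05 ± 0.41 for Tnfsf8, -2.86 ± 0.27 for Tnfsf11, -2.83 ± 0.49 for Cd40lg and -1.87 ± 0.48 for Lta (SE). The edgeR adjusted p values were 4.92e-12, 3.14e-10, 3.40e-05 and 0.00495, and the last rose to 0.0738 without anti-VSIG4 2. Lta was lower in 4 of 5 libraries and the other 3 genes in 5 of 5.

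The 3 members tested that did not pass were Tnf, Tnfrsf1a and Tnfrsf25. The members' median log2 difference was 0.48 and that of all genes -0.01. The shares of cells follow the levels: after thinning to 1000 UMIs, 73.1% ± 11.8 of regulatory T cells had a Tnfrsf4 UMI (SD, n = 5), against 44.1% ± 7.4 of conventional CD4 T cells and 0.97% ± 0.70 of neutrophils (SD, n = 6). Before thinning the median depths were 2493, 3366 and 1580 UMIs. For Tnfrsf9 the shares were 62.7%, 25.4% and 3.28% in these classes, and for Tnfrsf18 71.6%, 43.9% and 4.82%.

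**Figure D3:**
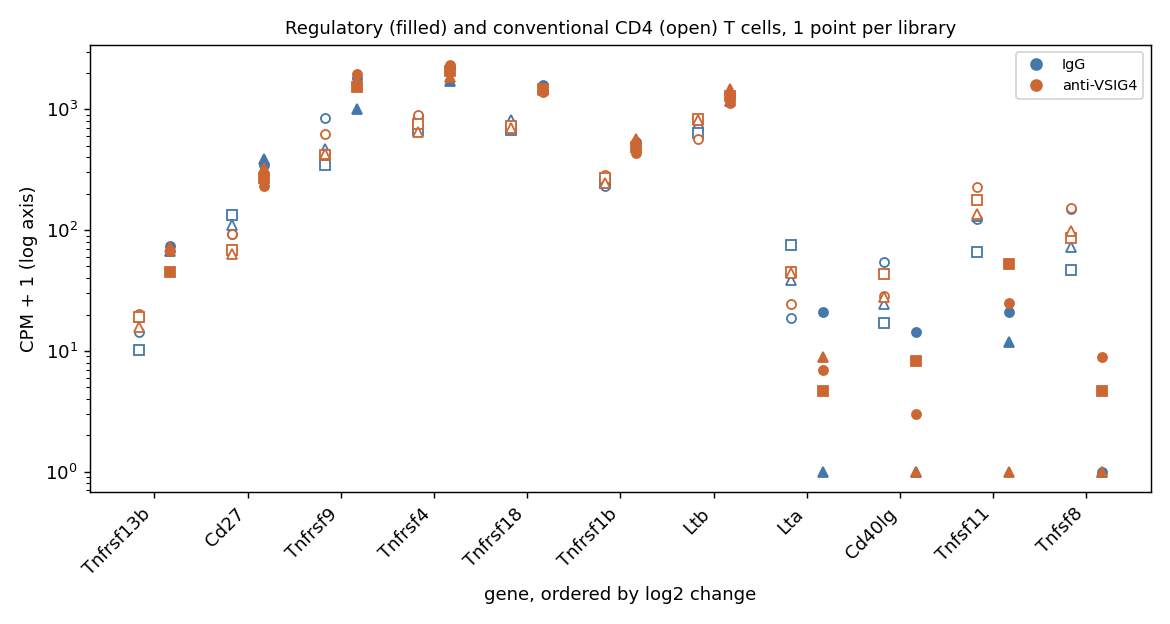
CPM + 1 (log axis) of the 11 members that passed, in regulatory T cells (filled) and conventional CD4 T cells (open), 1 point per library (circle, square and triangle for replicates 1, 2 and 3), ordered by log2 difference. Filled points lie above open points for the 7 genes on the left, such as Tnfrsf4 (2029.6 against 784 CPM), and below them for Tnfsf8, Tnfsf11 and Cd40lg.

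Of the pathway genes downstream, 4 of 19 receptor adaptors and kinases tested were higher in regulatory T cells and 1 was lower. Traf1, Traf3, Tank and Birc3, which bind or act beside the cytoplasmic tails of these receptors, were the higher ones, with log2 differences of 0.40, 1.09, 1.27 and 0.59, and Map3k14, the NIK kinase, was lower at -0.76. Among 12 NF-kB subunits and feedback genes, Bcl3 (0.69), Nfkbia (0.46) and Nfkbiz (0.68) were higher and Nfkbib (-0.65) lower. Of 16 response genes none was higher, and Csf1 (-1.51) and Csf2 (-4.15), growth factors of myeloid cells, were lower. Each passed edgeR at an adjusted p below the false discovery rate of 0.05, against the 13.4% of all genes given above.

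Among receptors of dendritic cells, Cd40 was highest in migratory dendritic cells, with 323, 255 and 271 CPM in the IgG libraries and 221, 214 and 215 CPM in the anti-VSIG4 libraries. In cDC2 it was at 33.7 to 49.8 CPM, without overlap, and the log2 difference was 2.56 ± 0.15 (SE; edgeR adjusted p = 1.13e-11). Tnfrsf11a, which encodes RANK, was at 57.8 ± 8.72 against 5.54 ± 2.30 CPM (SD, n = 6), a log2 difference of 3.39 ± 0.27 (SE; edgeR adjusted p = 9.82e-10). Cd70 differed most, by 6.30 ± 0.39 on the log2 scale (SE; edgeR adjusted p = 1.70e-11). After thinning, 18.5% ± 4.0 of migratory dendritic cells had a Cd40 UMI, against 3.83% ± 1.58 of cDC2, 0.65% ± 0.19 of neutrophils and 0.25% ± 0.31 of CD8 T cells (SD, n = 6). Before thinning the median depths were 3673, 6526, 1580 and 2747.5 UMIs.

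Migratory dendritic cells also had more of the receptors that were high in regulatory T cells. Tnfrsf4 was at 142 ± 37.0 against 9.64 ± 7.70 CPM in cDC2, Tnfrsf9 at 397 ± 201 against 110.0 ± 28.1 CPM and Tnfrsf18 at 181 ± 49.9 against 62.0 ± 15.6 CPM (SD, n = 6). Summed T cell markers in migratory dendritic cells were at 3.63% of their level in T cells and those of cDC2 at 2.36%, and their part in these values was not tested. Tnfrsf1b (0.45) and Tnfsf9 (0.67) were higher too, while Tnfrsf1a (-1.14), Tnfrsf12a (-1.18), Tnfrsf13b (-1.32), Tnfsf12 (-1.11) and Ltbr (-0.58) were lower on the log2 scale. Summed monocyte/macrophage markers were at 5.30% of their own level in migratory dendritic cells and at 13.4% in cDC2. Their part in these differences was not tested.

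Thus 13 of 15 members tested passed between the dendritic cell classes, 8 higher and 5 lower, where 50.9% of all 6329 genes passed. Ltb and Tnf did not pass. The members' median log2 difference was 0.51, against 0.02 over all genes. The call of Ltbr was lost with DESeq2 (adjusted p = 0.059) and without IgG 2 (edgeR adjusted p = 0.148), anti-VSIG4 1 (0.0661) or anti-VSIG4 3 (0.0586). Without anti-VSIG4 1 Tnfrsf1b was lost (0.0568), and without anti-VSIG4 3 Tnfsf9 (0.0914).

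Most genes of the NF-kB list were higher beside these receptors. Of 14 NF-kB subunits and feedback genes tested, 9 were higher in migratory dendritic cells and 2 lower. Relb, the subunit of the pathway downstream of CD40, RANK and LTBR, was higher by 2.79 on the log2 scale and Nfkb2, its partner, by 1.80. These 11 genes are 78.6% of the list, where 50.9% of all genes passed. Of 22 adaptors and kinases 13 (59.1%, near the share of all genes) were higher and none lower, with Traf1 (1.78), Traf3 (2.36), Traf6 (1.83), Map3k14 (1.22) and Birc2 (3.32) among them. Response genes were mixed, 4 higher and 5 lower of 16 (56.2%, also near the share of all genes), with Ccl5 (3.96) and Icam1 (1.33) higher and Il1b (-0.95) lower. Both relatives tested, Fas (2.88), a death receptor, and Relt (1.00), were higher.

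The TNF receptors were at their highest in neutrophils, beside the ligand. Tnfrsf1a, which encodes TNFR1, the receptor with a death domain, was at 257 to 390.4 CPM in neutrophils of the 6 libraries and at 117 to 170.0 CPM in monocytes and macrophages. The log2 difference was 1.29 ± 0.12 (SE; edgeR adjusted p = 2.54e-08). Tnfrsf1b was at 424 to 673 CPM in neutrophils and 137 to 199 CPM in monocytes and macrophages, a log2 difference of 1.71 ± 0.10 (SE; edgeR adjusted p = 1.02e-10). Neither gene overlapped between the 2 classes. Regulatory T cells came close to neutrophils for Tnfrsf1b (501 against 546 CPM), with neutrophils the higher in 3 of 5 libraries.

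Tnfrsf23, which encodes a decoy receptor of TRAIL, was at 119 ± 37.4 CPM in neutrophils against 11.9 ± 4.93 CPM in monocytes and macrophages. Its neighbour Tnfrsf26 was at 32.0 ± 8.03 against 4.88 ± 2.71 CPM (SD, n = 6). The genes higher in neutrophils were completed by Ltb, Tnf, Tnfsf14 (1.01), Tnfrsf10b (1.25), Tnfrsf13b (1.00), Tnfrsf18 (1.70) and Tnfrsf22 (1.76, log2 differences). Tnfrsf10b was low in both classes, at 2.22 CPM in neutrophils and 0.98 CPM in monocytes and macrophages. Those higher in monocytes and macrophages were the ligands Tnfsf9, Tnfsf12, Tnfsf15, Tnfsf8, Tnfsfm13 and the antisense Tnfsf13os, and the receptors Cd40, Ltbr, Tnfrsf9, Tnfrsf11a, Tnfrsf12a and Tnfrsf21. Their log2 differences ran from -4.36 (Tnfsf15) to -0.43 (Ltbr). Tnfsf15 and Tnfsf8 were low in both classes, at 3.91 and 2.26 CPM in monocytes and macrophages. Tnfsf8 lost its call without IgG 1, IgG 2, anti-VSIG4 2 or anti-VSIG4 3 (edgeR adjusted p = 0.058 to 0.0798).

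Beside them, 11 of 14 NF-kB subunits and feedback genes were higher in neutrophils and 2 lower, and 16 of 26 adaptors and kinases were higher and 5 lower. Icam1 (3.16), Csf1 (3.61) and Cxcl2 (2.19) were among 10 of 18 response genes that were higher, and Vcam1 (-2.82), Il6 (-3.44) and Ccl2 (-2.94) among 6 that were lower on the log2 scale. The shares that passed were 92.9% of the NF-kB list, 80.8% of the adaptors and 88.9% of the response genes, where 72.8% of all genes did. Of the proteases that cut TNF from the membrane, Adam17 was higher (0.61) and Adam10 lower (-0.75) in neutrophils.

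Between tumour/epithelial cells and fibroblasts 12 of 19 members tested passed, 4 higher and 8 lower in tumour cells, where 56.2% of all 10933 genes passed. Among the receptors Tnfrsf12a, which encodes Fn14, the TWEAK receptor, was highest in tumour/epithelial cells. It was at 467, 946 and 1236 CPM in IgG 1, 2 and 3 and at 421, 549 and 1117 CPM in anti-VSIG4 1, 2 and 3. Fibroblasts had 170.4, 556 and 649.8 CPM, then 252, 238 and 517 CPM, and were lower than tumour cells in 6 of 6 libraries. IgG 2, IgG 3 and anti-VSIG4 3, the libraries rich in nucleus-like cells, were the 3 highest in both classes. The log2 difference between the classes was 0.85 ± 0.11 (SE; edgeR adjusted p = 1.97e-06).

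Tnfrsf19, which encodes TROY, was at 11.6 to 58.5 CPM in fibroblasts, and the next class had 0.952 CPM on average. In tumour cells it was at 0 to 2.35 CPM, a log2 difference of -5.45 ± 0.58 (SE; edgeR adjusted p = 3.63e-05). Tnfrsf11b, which encodes osteoprotegerin, a soluble decoy of RANKL, was at 17.4 ± 14.4 CPM in fibroblasts and 12.3 ± 7.47 CPM in endothelial cells (SD, n = 6), each the higher in 3 of 6 libraries. IgG 3 had 43.7 CPM and anti-VSIG4 2 had 4.27 CPM in fibroblasts. Tumour cells were above fibroblasts in Tnfrsf12a, Tnfrsf21 (1.17), Tnfrsf10b (1.05) and Tnfrsf22 (2.27), and below them in 8 members, among them Tnfrsf1a (-0.92), Tnfrsf1b (-0.68), Tnfsf12 (-1.57) and Cd27 (-1.17). Cd27 was low in both, at 3.49 and 6.62 CPM. Summed T cell markers in these classes were at 1.90% and 2.45% of their level in T cells, and their part was not tested.

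The members' median log2 difference was -0.49, against -0.02 over all genes. The 2 weakest, Ltb (-0.60) and Tnfrsf9 (-0.53), lost their calls with DESeq2 (adjusted p = 0.0938 and 0.0607), and both sat at low levels in both classes (14.3 and 20.03 CPM for Ltb). Without the 6% of cells with the highest doublet scores Ltb was at an edgeR adjusted p of 0.141 and Tnfrsf9 at 0.129. Of 18 response genes 15 were lower in tumour cells and 1 higher, and of 14 NF-kB genes 8 were lower and 2 higher. The shares that passed were 88.9% and 71.4%, where 56.2% of all genes did.

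The receptors of BAFF and APRIL were highest in different classes, and Tnfrsf13b was also present in myeloid cells. Tnfrsf13c, the BAFF receptor, was at 54.4 to 108 CPM in B cells of 5 libraries and at 26.2 ± 12.4 CPM in plasma cells (SD, n = 6), with B cells the higher in 5 of 5. Tnfrsf17, which encodes BCMA, the receptor of plasma cells, was at 42.8 ± 12.6 CPM there and at or below 4.60 CPM on average in all other classes. Tnfrsf13b was at 79.3 ± 22.1 CPM in plasmacytoid dendritic cells (SD, n = 3), 62.0 CPM in plasma cells and 40.3 ± 9.31 CPM in neutrophils. Tnfrsf25, which encodes DR3, was at 73.8 ± 17.3 CPM in gamma-delta T cells and 24.9 ± 11.4 CPM in regulatory T cells, but the former come from the 3 anti-VSIG4 libraries alone.

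The remaining receptors had shallower profiles. Tnfrsf10b, the mouse TRAIL receptor, was at 29.2 ± 6.84 CPM in endothelial cells and 15.3 ± 4.56 CPM in tumour cells (SD, n = 6). Tnfrsf22 was at 20.7 ± 9.17 CPM in endothelial cells and 14.3 ± 4.40 CPM in tumour cells, the first above the second in 5 of 6 libraries for both genes. Tnfrsf21, which encodes DR6, did not separate tumour cells (29.4 ± 7.63 CPM) from macrophages (25.1 ± 4.10 CPM), with each the higher in 3 of 6. Tnfrsf8, which encodes CD30, was at 20.7 ± 4.33 CPM in regulatory T cells (SD, n = 5) and 7.72 ± 4.87 CPM in proliferating T cells.

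Ligands and receptors were then set side by side as 23 pairs known to bind. In 19 pairs both genes reached 5 CPM in some class, and in 3 of these the highest class was the same: Tnf with Tnfrsf1a and with Tnfrsf1b in neutrophils, and Tnfsf10 with Tnfrsf10b in endothelial cells. In the other 16 the ligand and the receptor were highest in different classes. Several of these highest classes were not clear of the next class. Endothelial cells were above the next class for Tnfsf10 in 3 of 6 libraries, and neutrophils for Tnfrsf1b in 3 of 5. The highest class of Lta, the proliferating T cell, rests on 1 cell. For the receptors of regulatory T cells the ligand was highest in migratory dendritic cells (Tnfsf4 for Tnfrsf4, Cd70 for Cd27) in macrophages (Tnfsf9 for Tnfrsf9) or in conventional CD4 T cells (Tnfsf8 for Tnfrsf8), and for Tnfrsf18 the ligand Tnfsf18 was near 0 in every class. For the receptors of migratory dendritic cells, Cd40 and Tnfrsf11a, it was highest in conventional CD4 T cells (Cd40lg and Tnfsf11). Transcript levels show neither surface protein nor contact between the cells.

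The treatment groups were compared in 16 fits, over all kept cells, 10 classes and 5 T cell subsets, each over all genes. Of 297 tests of members, 0 passed the false discovery rate of 0.05 with edgeR, and 0 passed with DESeq2. At an unadjusted p below 0.05 there were 19 (6.4%), against 5.1% of all 132547 tests of genes. Across all genes the share called with edgeR was 0.00919% in neutrophils, 0.00952% in T cells, 0.0151% in endothelial cells and 0% in the other 13 fits. The lowest adjusted p of any member was 0.48, for Tnf in migratory dendritic cells. None of the genes of the 5 pathway lists passed in any of these fits.

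A looser description is whether the ranges of the groups overlap. They did not in 31 of the 297 member tests (10.4%), 18 of them higher and 13 lower with anti-VSIG4, against 10.7% of all genes. By fit this was 6 of 40 members over all kept cells (14.6% of all genes), 2 of 25 in neutrophils (12.2%), 2 of 31 in monocytes and macrophages (7.95%) and 2 of 28 in T cells (8.09%). In tumour cells it was 4 of 24 (16.7% of members and 7.54% of all genes), each higher with anti-VSIG4: Tnfrsf13b, Tnfrsf1b, Tnfsf13os and Tnfsf14. In conventional CD4 T cells it was 3 of 18 (16.7% and 8.43%), with Tnfrsf1b and Tnfsf11 higher and Tnfsf10 lower. No test was made of these 2 shares against those of all genes. The counts were 2 of 17 in cDC2 (9.52% of all genes), 2 of 14 in migratory dendritic cells (15.7%), 2 of 15 in endothelial cells (9.7%), 1 of 10 in NK cells (10.7%) and 1 of 18 in fibroblasts (10.9%). In the remaining T cell subsets they were 2 of 8 in regulatory T cells (20.8%, with 5 libraries), 1 of 16 in proliferating T cells (8.13%), 1 of 8 in the T cell cluster led by Xcl1 (9.26%) and 0 of 17 in CD8 T cells (7.47%), and in plasma cells 0 of 8 (18.7%).

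In the classes that hold most of the Tnf, its change with treatment did not pass. In neutrophils the group means were 529.5 CPM with IgG and 591 CPM with anti-VSIG4, with overlapping ranges and a log2 change of 0.28 ± 0.33 (SE; edgeR adjusted p = 0.903). In monocytes and macrophages the change was -0.12 ± 0.50 (edgeR adjusted p = 0.999), and its sign turned without IgG 2 (0.35), without anti-VSIG4 1 (0.03) or without anti-VSIG4 2 (0.18). The share of cells with a Tnf UMI at 1000 UMIs per cell was 20.7% ± 4.0 and 22.4% ± 6.2 in neutrophils and 15.6% ± 4.6 and 14.98% ± 5.6 in monocytes and macrophages (SD, n = 3; exact permutation p = 0.7 and 0.9, two-sided, where 0.1 is the smallest possible).

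In lymphocytes and stroma Tnf was at levels far below those of neutrophils and macrophages, and none of its changes passed. In regulatory T cells it was at 29.98 and 98.6 CPM with IgG and 59.5, 7.30 and 94.8 CPM with anti-VSIG4, lower on average with anti-VSIG4 (64.3 and 53.9 CPM) and overlapping. In the other lymphocyte and stromal classes fitted the anti-VSIG4 mean was the higher, with overlapping ranges. In CD8 T cells it was at 20.8, 22.4 and 10.04 CPM with IgG and 42.5, 21.0 and 51.4 CPM with anti-VSIG4, where anti-VSIG4 2 fell among the IgG libraries. The log2 change was 1.12 ± 0.39 (SE; edgeR adjusted p = 1.000). Summed neutrophil markers in the same cells were at 741 CPM with IgG and 1565 CPM with anti-VSIG4 on average. The libraries had 1236, 759 and 228 CPM with IgG and 3171, 810 and 716 CPM with anti-VSIG4, with overlapping ranges. The part of these markers in the change was not tested. The log2 changes in other classes, which did not pass either, were 0.97 in endothelial cells, 1.00 in NK cells, 0.76 in tumour cells, 0.90 in migratory dendritic cells and 1.2 in the T cell cluster led by Xcl1, Ly6c2 and Klra7. In these classes the neutrophil markers were on average also higher with anti-VSIG4. Examples were 748 and 2549 CPM in endothelial cells and 833 and 1754 CPM in tumour cells. The ranges of the groups overlapped in each of these classes except endothelial cells, and anti-VSIG4 1 was the highest library in each.

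For Tnfsf9 in monocytes and macrophages, whose values stand above, IgG 2 and IgG 3 were the 2 highest libraries and IgG 1 lay among the anti-VSIG4 libraries. The log2 change was -1.34 ± 0.56 (SE; edgeR adjusted p = 0.999). IgG 2 and IgG 3 are rich in nucleus-like cells, as is anti-VSIG4 3, the highest of its own group. Cluster 10, the place of Tnfsf9, made up 5.88%, 33.4% and 22.5% of the class in IgG 1, 2 and 3 and 7.42%, 18.8% and 7.57% in anti-VSIG4 1, 2 and 3. Within cluster 10 Tnfsf9 was at 299, 509 and 492 CPM with IgG and 193, 123 and 403 CPM with anti-VSIG4, with overlapping ranges. The part of the cluster shares in the change of the class was not tested. Tnfrsf9 in the same class was at 169, 147 and 106 CPM with IgG and 230.3, 294 and 117 CPM with anti-VSIG4, a log2 change of 0.57 ± 0.28 (edgeR adjusted p = 0.999), and anti-VSIG4 3 fell among the IgG libraries. Summed T cell markers in this class were at 77.6 CPM with IgG and 154 CPM with anti-VSIG4 on average. Their ranges overlapped, and their part was not tested.

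**Figure D4:**
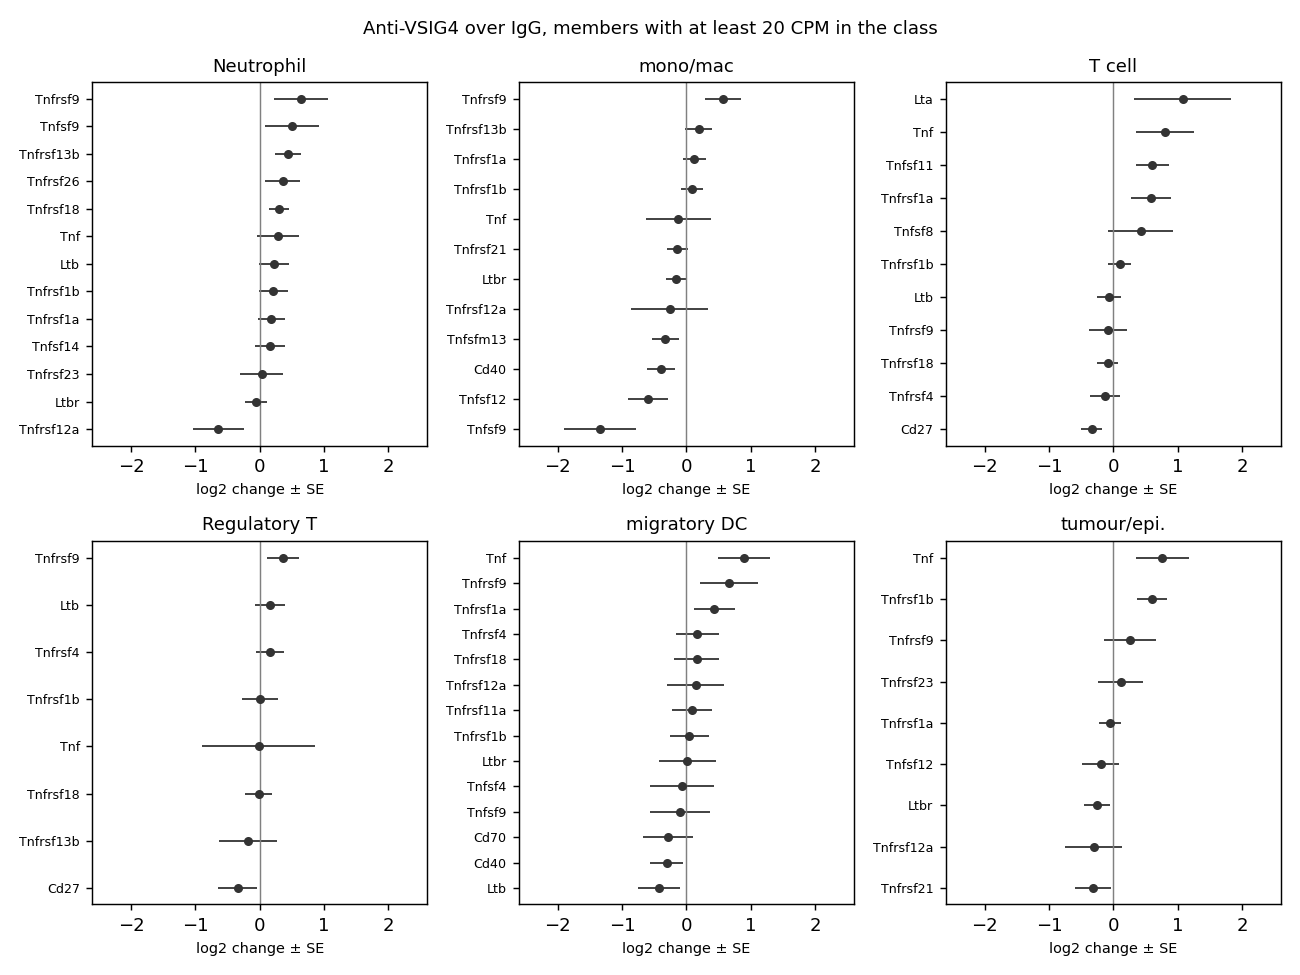
Log2 change of anti-VSIG4 over IgG with its standard error (x axis) for members with at least 20 CPM in 6 classes. No change passed, and the farthest from 0 among the monocytes and macrophages is Tnfsf9 at -1.34.

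Over the whole T cell class the 2 members whose groups did not overlap were Tnfsf11 and Cd27. Tnfsf11 in conventional CD4 T cells was at 121, 64.4 and 129.7 CPM with IgG and 224, 177 and 135 CPM with anti-VSIG4, a log2 change of 0.75 ± 0.27 (SE; edgeR adjusted p = 0.996). Over all T cells it was 0.61 ± 0.25. Cd27 over all T cells was at 135, 139.7 and 136 CPM with IgG and 111, 116 and 96.3 CPM with anti-VSIG4, a log2 change of -0.33 ± 0.16 (edgeR adjusted p = 1.000). The log2 change of Cd27 was -0.57 in conventional CD4 T cells, -0.34 in proliferating T cells and -0.34 in regulatory T cells, and none of these passed.

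In regulatory T cells none of the 8 members tested passed. With 2 IgG and 3 anti-VSIG4 libraries the log2 changes were 0.16 ± 0.21 for Tnfrsf4, 0.37 ± 0.25 for Tnfrsf9, -0.02 ± 0.21 for Tnfrsf18 and 0.17 ± 0.23 for Ltb (SE; edgeR adjusted p = 0.998 for each). The share of regulatory T cells with a Tnfrsf9 UMI at 1000 UMIs was 55.0% ± 21.3 (SD, n = 2) and 67.8% ± 8.0 (SD, n = 3; exact permutation p = 0.5, two-sided). For Tnfrsf4 it was 71.9% ± 16.8 and 74.0% ± 11.5 (exact permutation p = 0.9).

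Among dendritic cells, Tnfsf12 in cDC2 was at 24.3, 34.3 and 47.5 CPM with IgG and 19.4, 20.4 and 12.3 CPM with anti-VSIG4. The groups did not overlap, and the log2 change was -1.0 ± 0.31 (SE; edgeR adjusted p = 0.994). Ltb in cDC2 was at 66.6, 50.5 and 37.4 CPM with IgG and 80.3, 83.4 and 79.8 CPM with anti-VSIG4, again without overlap, a log2 change of 0.65 ± 0.23 (edgeR adjusted p = 0.994). In cDC2 the summed T cell markers were on average at 75.7 CPM with IgG and 156 CPM with anti-VSIG4 and the neutrophil markers at 952 and 1903 CPM. For both sets of markers the ranges of the groups overlapped, and anti-VSIG4 3 had 58.8 and 858 CPM. T cells and neutrophils hold more Ltb than cDC2 do, and their part in the change of Ltb was not tested. Monocytes and macrophages hold more Tnfsf12 than cDC2 do. Their summed markers in cDC2 were on average at 1461 CPM with IgG and 1241 CPM with anti-VSIG4. These marker ranges overlapped, and their part in the change of Tnfsf12 was not tested. For Tnfrsf9 in migratory dendritic cells the log2 change was 0.67 ± 0.45 (edgeR adjusted p = 0.61), and without IgG 1, its highest IgG library at 561 CPM, it was 1.48 (edgeR adjusted p = 0.0287). The share of migratory dendritic cells with a Cd40 UMI at 1000 UMIs was 24.8%, 19.4% and 20.2% with IgG and 18.2%, 15.8% and 13.0% with anti-VSIG4. These do not overlap (exact permutation p = 0.1, the smallest possible, and 0.6 adjusted over 6 such shares), and without thinning the means were 46.1% and 48.7%.

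In the remaining classes the members with the smallest p values did not pass. In tumour cells Tnfrsf1b was at 58.0, 46.5 and 38.6 CPM with IgG and 86.4, 58.8 and 68.1 CPM with anti-VSIG4, without overlap (log2 change 0.60 ± 0.23, SE; edgeR adjusted p = 0.999). The lowest unadjusted p of any member was that of Tnfrsf13b in tumour cells, 0.00125, at 1.02 and 4.19 CPM (edgeR adjusted p = 0.999). Tnfrsf1b and Tnfrsf13b were also present in neutrophils (546 and 40.3 CPM), whose markers in tumour cells are given above, and their part was not tested. In neutrophils Tnfrsf18 was at 52.3 to 56.4 CPM with IgG and 60.7 to 63.7 CPM with anti-VSIG4, without overlap (0.30 ± 0.16; edgeR adjusted p = 0.850), and the log2 change of Tnfrsf13b was 0.43 ± 0.20. Summed T cell markers in neutrophils were at 80.7 CPM with IgG and 137 CPM with anti-VSIG4 on average. Their ranges overlapped, and their part was not tested.

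The log2 change was -0.52 for Tnfsf12 and 0.73 for Tnfrsf19 in fibroblasts, and 0.61 for Tnfrsf22 in endothelial cells, with none past edgeR's threshold. For Tnfrsf1a, highest in neutrophils, it was 0.66 in NK cells and 0.64 in CD8 T cells. The neutrophil markers were on average at 680.1 and 1639 CPM (IgG and anti-VSIG4) in NK cells, with overlapping ranges. They are given above for CD8 T cells, and their part was not tested. In plasma cells it was 0.37 for Tnfrsf18 and -0.33 for Tnfrsf17, and in the T cell cluster led by Xcl1 it was -0.23 for Ltb. For Lta in proliferating T cells it was 3.74 ± 1.55 (SE; edgeR adjusted p = 0.999), with 226 UMIs of the class in the 1 cell described above. Over all kept cells the smallest p values among members with 20 CPM were those of Ltb (0.45) and Tnfrsf12a (-0.69). Tnfrsf12a was at 331 and 457 CPM in IgG 2 and 3 and 98.6 to 221 CPM elsewhere. IgG 2 and 3 had the highest shares of nucleus-like cells. They also had most UMIs in tumour/epithelial cells, the class highest in Tnfrsf12a: 10133934 of 41398625 and 14027921 of 47155264. The other libraries had 3034668 to 5116914 of 26581404 to 41755912. The part of either in the level was not tested.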

How the data were processed

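Single-cell libraries were made on the DNBelab C TaiM4 V3.0 system and sequenced on MGI DNBSEQ-T7, per the labels' protocols. The authors deposited 1 matrix of UMI counts per library; the submitters' processing notes name PISA 1.0, STAR and Seurat 4.11, with no genome build, annotation or strand setting stated in the sources used here. Here barcodes with at least 500 UMIs, 300 genes and at most 20% mitochondrial UMIs were kept. Cells were clustered with scanpy 1.11.5, without correction between libraries. About 3000 variable genes, ranked within libraries and taken as 1 combined set, were used at Leiden resolution 1.0. T and NK cells were re-clustered after Seurat 5.3.0 integration, both without the family members. Clusters were named from marker lists. Clusters of long-gene RNA (over 15% of UMIs in genes spanning over 100 kb) were set aside as nucleus-like.

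UMI counts summed per library and class (20 cells or more) were tested with edgeR 4.0.16 (quasi-likelihood, TMM, filterByExpr, Benjamini-Hochberg over all genes at 0.05), with library as a block between classes and none between treatments. DESeq2 1.42.0 was an alternative. The test was tried on simulated data. Single shares used exact permutation tests.

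The members, pathway lists and comparisons were chosen with earlier results of these data known. Named were all members past the threshold and, in each treatment fit with none, the 2 with the smallest p at 20 CPM or more, plus a fixed set of the best-known ligands and receptors. The fit of regulatory T cells on 5 libraries and the 1-cell check of Lta were chosen after the data were seen. So was a rule for naming clusters, by which the leading gene may not be a marker of another class.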

Additional observations from a re-analysis of the deposited data

Results flagged for a closer look

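For 4 members, the groups stood apart in opposite directions in a pair of classes: every anti-VSIG4 library was above every IgG library in 1 class and below every IgG library in the other. The pairs were chosen for this among all pairs of classes, so the difference was not tested. Groups did not overlap in 10.7% of all single tests of genes, and in 20.8% of those in regulatory T cells. The share of all genes with such an opposite pair was not counted. The 4 members are therefore a description without a background. The values are the difference between the 2 changes in mean log2(CPM + 1). These were taken without edgeR's scaling, so they can differ from the edgeR log2 changes given above.

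Ltb was higher with anti-VSIG4 in cDC2 (51.5 to 81.1 CPM on average) and lower in NK cells (295 to 256 CPM), a difference of 0.89. It was also lower in the T cell cluster led by Xcl1 (449 to 366 CPM), a difference of 0.98. In cDC2 the summed T cell markers were on average at 75.7 CPM with IgG and 156 CPM with anti-VSIG4. Their ranges overlapped, and their part was not tested. Tnfsf13b was higher in monocytes and macrophages (4.96 to 6.53 CPM) and lower in fibroblasts (8.44 to 5.40 CPM), a difference of 0.92. Cd40 was higher in endothelial cells (15.04 to 20.6 CPM) and lower in migratory dendritic cells (283 to 216 CPM), a difference of 0.81. Tnfrsf18 was higher in neutrophils (54.3 to 62.1 CPM) and lower in regulatory T cells (1533 to 1433 CPM, 5 libraries), a difference of 0.29. Its edgeR log2 change in regulatory T cells, given above, was smaller than its SE. In neutrophils the T cell markers were on average at 80.7 and 137 CPM with overlapping ranges, and their part was not tested.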

How the results depend on the processing

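Of 282 counts of called members under alternatives, 271 stayed within 1.5 times the main count. Most of them belong to the treatment fits, whose main count was 0 and in which almost no gene passed. There 0 against 0 was scored as unchanged, so the 271 says little about how firm the calls between classes are. The treatment counts of 0 became 2 in monocytes and macrophages, 1 in cDC2, 1 in tumour cells, 1 in fibroblasts, 1 in CD8 T cells and 2 in proliferating T cells when only the 3 libraries rich in nucleus-like cells were fitted, where the anti-VSIG4 group is 1 library assumed to vary like the others. With only the 3 libraries poor in them, where the IgG group is 1 library, they became 1 in endothelial cells and 1 in CD8 T cells. Neither fit measures a spread between mice in its group of 1. With no filter on low counts fibroblasts had 1 call, and tumour cells against fibroblasts had 21 calls (7 higher, 14 lower). Leaving out single libraries gave 0 to 1 in migratory dendritic cells and 0 in the other treatment fits. The causes were not tested.

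The labels' replicate numbers did not pair the mice: the deviations of same-numbered libraries correlated at 0.242, -0.307 and 0.242. With the replicate block the count of called members was 0 in every treatment fit. Log2 changes that turned sign among the 3 libraries rich in nucleus-like cells were Tnfrsf22 in endothelial cells (-0.12), Tnf (0.44) and Tnfrsf9 (-0.07) in monocytes and macrophages and Tnfrsf17 in plasma cells (0.13). Among the 3 poor ones they were Tnfrsf9 in migratory dendritic cells (-0.02) and Tnfrsf12a over all kept cells (0.21). With the library kind as covariate Tnf in monocytes and macrophages was 0.11. Leaving out single libraries turned the sign of Tnf there (range -0.78 to 0.35), of Tnf in neutrophils (-0.08 to 0.54) and of Tnfrsf17 in plasma cells (-0.54 to 0.08). Without thinning the differences in shares of cells were 6.64 percentage points for Tnf in monocytes and macrophages and 2.61 for Cd40 in migratory dendritic cells, each opposite to the thinned sign. Among alternatives for single members 1128 kept direction and side of the threshold, 24 lost a call, 6 gained one and 12 turned sign. Low members and the class of regulatory T cells, with 407 cells, are limited by depth.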

Other observations

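Nucleus-like clusters, which are in none of the classes above, held 10515 of the 41038 Tnfrsf9 UMIs of all kept cells. Tnfrsf9 was at 438, 368 and 699 CPM in these clusters of IgG 1, 2 and 3 and at 439, 407 and 314 CPM in those of anti-VSIG4 1, 2 and 3. Tnf was at 188, 358 and 97.6 CPM and 181, 98.5 and 388 CPM in the same clusters, and as in neutrophils and macrophages IgG 2 and anti-VSIG4 3 were the highest libraries.

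The single proliferating T cell of anti-VSIG4 2 that held 226 Lta UMIs also had 169 UMIs of Csf2, 79 of Tnfrsf18, 67 of Tnfrsf4, 28 of Tnfrsf9, 18 of Tnfsf11 and 10 of Cd70. It had 7 UMIs of Cd3e, 7 of Cd4 and 18 of Mki67 in a total of 54825. The cell with the next highest Lta count in that library had 20 UMIs. The cell was noticed after its library stood apart, and doublets could not be called in these data.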
